A study of Acropora tenuis with 242 samples.

Results

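The subject is a set of 100 gene models counted in libraries of the coral Acropora tenuis. In juveniles kept at ambient temperature they were lower in the symbiont treatment labelled SED than in the treatments labelled C1, D1 and SS. They were chosen on measured values. For each of the 25349 gene models in the juvenile table, counts were scaled to a library total of 1000000 (CPM), averaged per treatment over the Ambient libraries and written as log2(mean CPM + 1). A gene model was taken if its highest treatment mean reached 10 CPM, if the widest step between the 4 sorted treatment levels separated SED from the rest from below, and if that step (the gap) amounted to a ratio of at least 1.5. These conditions left 226 gene models, of which the 100 with the largest gap are described. The Ambient juvenile levels therefore describe the choice and are given with no test.

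The study measured gene expression by tag-based RNA sequencing in coral crosses whose parents came from 5 Great Barrier Reef populations, labelled BK, CU, DR, LS and SB. Juveniles were offered 1 of 4 symbiont uptake treatments, whose codes the labels do not spell out, and were kept at Hot or Ambient temperature. The SED treatment had 28 Ambient libraries, C1 had 29, D1 had 32 and SS had 30, each from 10 crosses. At Hot there were 15 SED libraries from 7 crosses, 6 D1 libraries from 4 crosses, 6 SS libraries from 3 crosses and 0 of C1. Larvae of 11 crosses, with no symbiont treatment, gave 30 Hot libraries from 10 crosses, 33 Ambient libraries and 33 libraries taken before the exposure (Pre). Nothing in the labels tells whether replicate libraries are separate cultures, so the p-values below reflect how libraries or crosses scatter here, and that scatter may be technical.

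Acropora corals release eggs and sperm without symbiotic algae, and the young animals take up algae of the family Symbiodiniaceae from their surroundings. The algae live inside cells of the coral gastrodermis and pass sugars and lipids to the host, which supplies inorganic carbon and nitrogen in return. In coral research C1 and D1 are names of algal types in the genera Cladocopium and Durusdinium, and Durusdinium is known for heat tolerance. Heat can break the association, which is seen as bleaching. The files do not pair the identifiers of the gene models with gene names, so no role can be given for any member and no sequence is printed. The identifiers begin with Amillepora and not with the name of the sampled species, and no reference is named. What that does to the counts was not tested.

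At Ambient the members were several times lower in SED juveniles than in all other treatments. Their summed level was 1808 ± 358 CPM in SED (SD, n = 28), against 8091 ± 1599 CPM in C1 (n = 29), 6914 ± 1247 CPM in D1 (n = 32) and 7665 ± 1536 CPM in SS (n = 30). The highest SED library held 2860 CPM of member transcripts, and the lowest library of the other treatments, in D1, held 4810 CPM. The median over the 100 members, on the log2(CPM + 1) scale, ran from 2.28 to 3.53 across SED libraries. It ran from 4.46 to 5.55 across C1, from 4.31 to 5.52 across D1 and from 4.21 to 5.63 across SS libraries. No SED library overlapped the other treatments on either summary, which the choice of members makes likely. In whole-animal RNA, fewer cells of a type that uses these genes and less RNA per cell cannot be told apart.

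**Figure D1:**
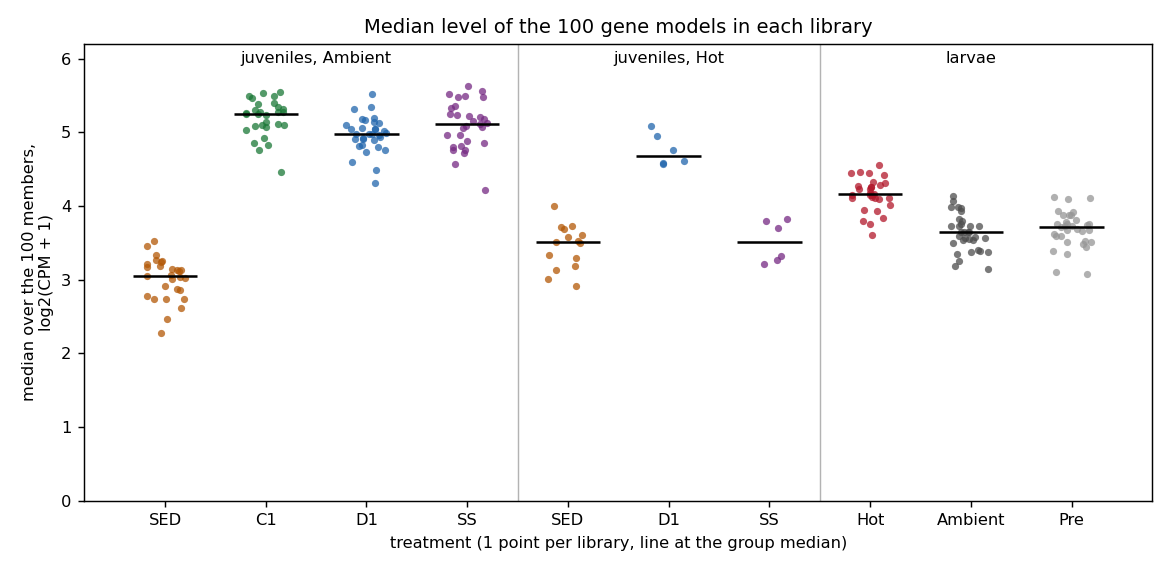
Median of log2(CPM + 1) over the 100 members in each library, by group, with 1 point per library and a line at the group median. At Ambient all SED libraries lie at or below 3.53 and all others at or above 4.21, while at Hot the SS libraries (3.21 to 3.82) lie among the SED libraries (2.92 to 3.996) and the D1 libraries (4.57 to 5.09) lie above both.

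The gap ran from 0.93 to 6.28 on the log2(mean CPM + 1) scale, with a median of 1.44. These are ratios of 1.90 to 78.0 with a median of 2.72. The gap was at least 1 in 83 members, at least 2 in 29, at least 3 in 15 and at least 4 in 6. The list thus holds a small number of gene models that were nearly silent in SED and a long remainder with a gap between 1 and 2 or just under 1. The mean level in SED was under 10 CPM in 56 members and under 1 CPM in 5, while the highest treatment mean was 10.4 to 685 CPM with a median of 47.8 CPM. Amillepora06310-RA, named after its values were seen, was the 1 member with 0 counts in SED, which over 8554456 counts allows a level of up to 0.351 CPM (counting error only).

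The limit of 100 fell within a continuous run of gaps. Just inside it, Amillepora08327-RA averaged 8.05 CPM in SED, against 23.9 in C1, 16.3 in D1 and 20.3 CPM in SS, and Amillepora02524-RA averaged 16.0 CPM in SED, against 32.2, 31.4 and 31.3 CPM in C1, D1 and SS. Just outside it, Amillepora03047-RA averaged 8.44 CPM in SED, against 17.4, 16.9 and 19.4 CPM in C1, D1 and SS. Amillepora31065-RA, also outside, averaged 8.94 CPM in SED, against 17.8, 19.0 and 18.4 CPM in C1, D1 and SS.

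The 2 members with the largest gap were close to absent in SED. Amillepora09062-RA had no count in 26 of 28 SED libraries and at most 3.59 CPM in the others, against 55.9 to 196.6 CPM in C1 (median 109.8), 37.2 to 192.9 CPM in D1 (median 85.5) and 33.5 to 291.9 CPM in SS (median 117.7). Amillepora04961-RA ran from 0 to 14.6 CPM in SED (median 0), against 74.9 to 694.4 CPM in C1 (median 221.2), 25.1 to 345.7 CPM in D1 (median 124.2) and 20.7 to 369.9 CPM in SS (median 129.1). In both gene models every SED library was below every library of the other treatments. Such complete separation was seen in 7 of the 100 members, all within the first 25 by gap. Over the 10520 gene models whose highest treatment mean reached 10 CPM the share was 0.0665%, which is these same 7. The choice of members makes this likely, so the count is no support by itself. The remaining 93 members overlapped between SED and at least 1 other treatment in single libraries.

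The level in a SED library was often set by few reads. In 23 members at least 14 of the 28 SED libraries held no count, while 51 members had a count in each of the 91 C1, D1 and SS libraries. A median of 74 members had a count in a SED library, against 97 in C1, 94.5 in D1 and 94 in SS. SED libraries were also the shallowest, with a median total of 292326 counts (160004 to 448569), against 408772 in C1, 326344 in D1 and 361994 in SS. The number of members with a count depends on depth, and the part of depth in it was not tested.

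Between the treatments in which they were high, the members differed less, which the rule partly fixes. The range between the C1, D1 and SS means had a median of 0.45 on the log2 scale and stayed under 1 in 91 members, with a maximum of 1.86. The highest of the 3 was C1 in 43 members, SS in 43 and D1 in 14, and the lowest of the 3 was D1 in 54, SS in 25 and C1 in 21. The order of the summed levels, with C1 above SS and SS above D1, spans means that differ by less than 1 SD of the C1 or SS libraries.

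**Figure D2:**
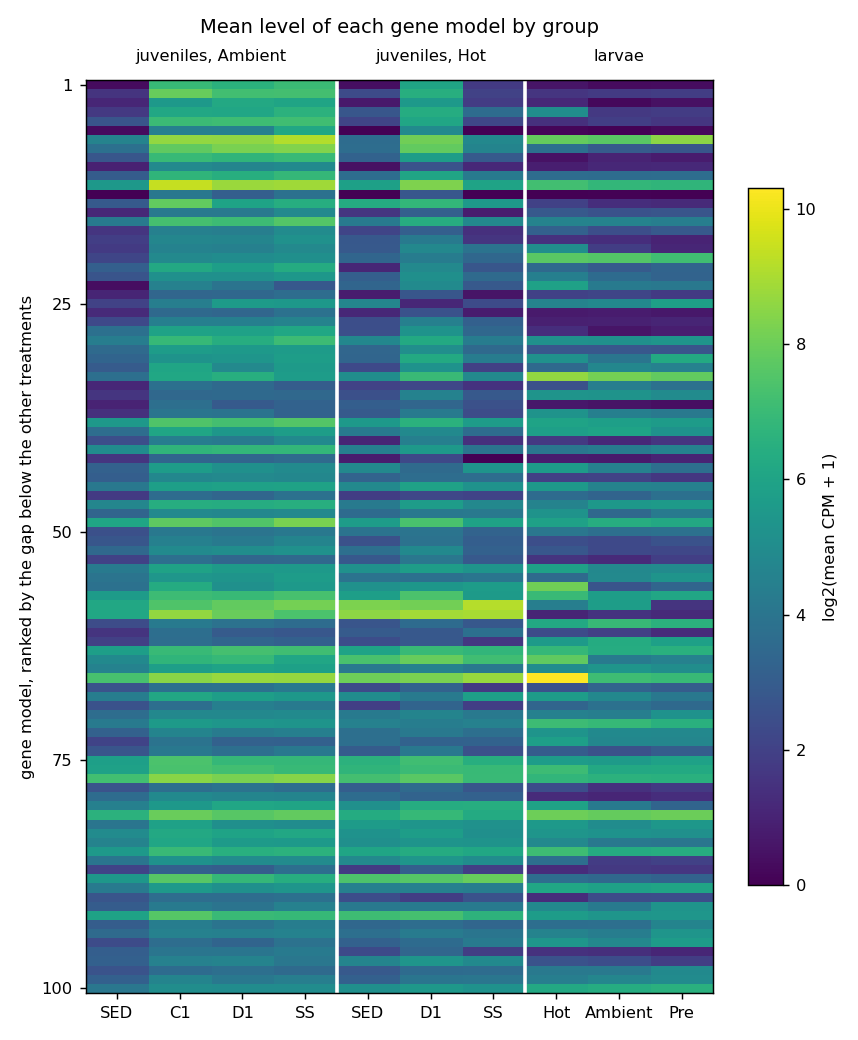
Mean level of each of the 100 members, as log2(mean CPM + 1), in the juvenile groups at Ambient and at Hot and in larvae. Rows run from the largest gap at the top to the smallest at the bottom, and the SED column at Ambient is the darkest of the 4 by the choice of members. The Hot SS column resembles Hot SED in the upper rows, where Hot D1 stays bright.

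The difference was present in every cross. The same Ambient libraries chose the members, so this is partly fixed by the choice and is no support by itself. The share over all gene models was not taken for the counts by cross. Within the 10 crosses, SED was the lowest of the 4 treatments in 84 (LSxLS) to 97 (DRxDR) of the 100 members and was below the mean of C1, D1 and SS in 96 to 100. The median difference between SED and that mean ran from -2.13 (DRxDR) to -1.60 (CUxCU) on the log2 scale, against -0.084 to -0.003 over all gene models of at least 10 CPM. By member, SED was lowest in all 10 crosses in 58, in 9 crosses in 16, in 8 in 10, in 7 in 9, in 6 in 4, in 5 in 2 and in 3 in 1. In Amillepora09062-RA the difference lay between -7.08 and -5.31 in all 10 crosses, and in Amillepora24890-RA, the member ranked 7, between -5.24 and -3.76.

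Crosses were spread in how high the members stood outside SED. With C1, D1 and SS weighted equally, the range between the highest and the lowest cross had a median of 1.01 on the log2 scale over the members, against 0.68 over all gene models of at least 10 CPM. The range was at least 2 in 15 members, against 4.25% of those gene models. In 68 members every cross mean in SED was below every such cross mean of the other treatments, which the choice of members makes likely. The share over all gene models was not taken for this count. The difference between SED and the rest was part of the choice of members, and the ranges between crosses were not tested.

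A pair of members stood out for the fewest crosses. Amillepora37424-RA was lowest in SED in 3 crosses. Its mean was 3.13 CPM in SED, against 20.0 CPM in C1, 47.8 CPM in D1 and 44.2 CPM in SS, while its median was 0 in all 4 treatments. Single libraries at 494.9 CPM in C1, 1262 CPM in D1 and 1250 CPM in SS made up those means, and without the highest library of each treatment they were 1.37 CPM in SED, 3.06 in C1, 8.61 in D1 and 2.57 CPM in SS. It was the only member in which 1 library held over 50% of a treatment's summed CPM, so its place in the list rests on those libraries. Amillepora06577-RA was lowest in SED in 5 crosses, with 1.93 ± 3.18 CPM in SED, against 12.4 ± 16.8 CPM in C1, 6.76 ± 15.0 CPM in D1 and 5.95 ± 13.0 CPM in SS.

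Libraries carry an index number in their names, which fell into an early and a late block. Relative to the mean position of their cross in the early block, SED libraries lay at 15.4 ± 6.02 (n = 28), against -14.6 ± 7.13 for C1 (n = 29), 1.47 ± 6.78 for D1 (n = 30) and -1.73 ± 5.52 for SS (n = 30). Their part in the Ambient difference was not tested. What the numbers stand for is not given in the labels.

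The first comparison outside the libraries that chose the members was SED against D1 at Hot. The members were again lower in SED. Their summed level was 3296 ± 1592 CPM in SED (n = 15), against 6113 ± 1038 CPM in D1 (n = 6), and the median over members ran from 2.92 to 3.996 in SED and from 4.57 to 5.09 in D1 libraries on the log2(CPM + 1) scale. The highest SED sum, 8349 CPM in DRxDR replicate 1, was above every D1 library. In that SED library Amillepora37764-RA held 2160 CPM and Amillepora19312-RA 1020 CPM, and without it the SED sum was 2935 ± 791 CPM (n = 14, highest 4642 CPM), against a lowest D1 sum of 4477 CPM, so the groups still overlapped narrowly. The SED mean was below the D1 mean in 89 members.

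Amillepora09062-RA remained nearly silent in SED at Hot. It had no count in 13 of 15 SED libraries and reached 3.44 CPM in LSxLS replicate 2, against 45.7 CPM in CUxDR, 42.7 in DRxSB, 82.7 and 86.0 in LSxLS and 77.0 and 55.1 CPM in SBxSB for D1. The groups did not overlap. It passed the low-count filter of the fit described below through its 6 D1 libraries alone, so the fitted test is of a gene model that its high group let in. With that limit, the log2 difference between SED and D1 was -6.22 (SE 0.53, adjusted p = 5.41e-08, Benjamini-Hochberg over edgeR quasi-likelihood tests), and without the filter it was -6.21. The rate of summed counts (3 in SED, 164 in D1), which uses no filter, was 152.8-fold lower in SED (95% exact interval 51.4 to 748.7-fold). That interval covers counting error only and leaves out the scatter between libraries and crosses.

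Amillepora24222-RA had the next largest fold among the members called in the filtered fit, though not without the filter, where Amillepora08258-RA (-7.22) and Amillepora04293-RA (-6.56), among others, lay further from 0. It ran from 0 to 17.7 CPM in SED (median 3.44), against 50.7, 80.5, 127.6, 80.8, 114.1 and 47.9 CPM in the 6 D1 libraries. No SED library reached the D1 range. It too passed the filter with no SED library, through 6 D1 libraries and 1 SS library. Its log2 difference was -4.69 (SE 0.49, adjusted p = 7.26e-07, Benjamini-Hochberg over edgeR quasi-likelihood tests). Amillepora24890-RA ran from 0 to 29.8 CPM in SED (median 8.48), against 180.1 to 392.4 CPM in D1. Amillepora04961-RA ran from 0 to 13.0 CPM in SED, against 22.8 to 153.6 CPM in D1. Its rate was 20.4-fold lower in SED (95% exact interval 14.1 to 30.6-fold, counting error only). All 4 of these gene models were separated without overlap at Hot as at Ambient.

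**Figure D3:**
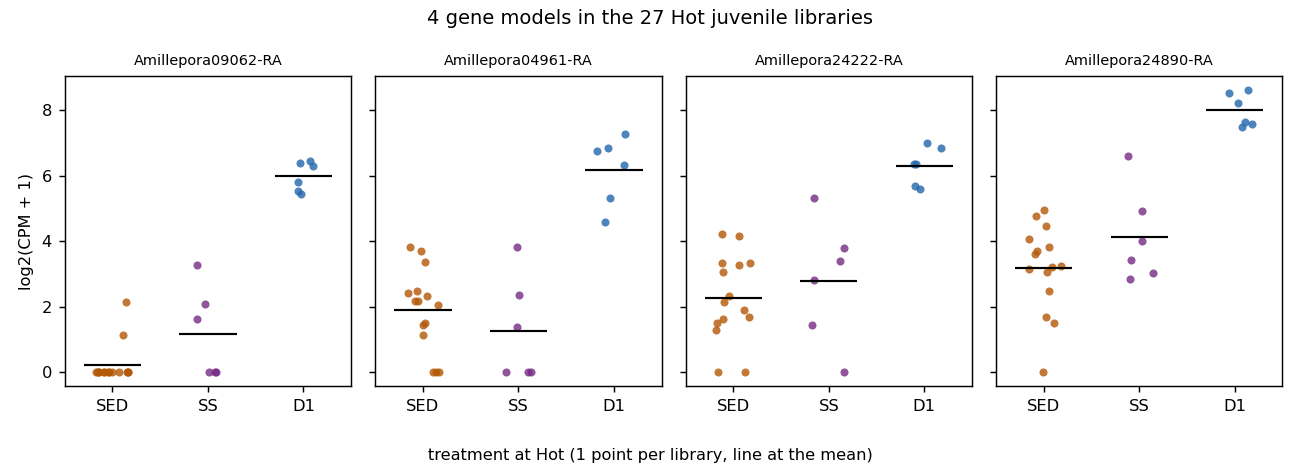
Levels of 4 members in each of the 27 Hot juvenile libraries, as log2(CPM + 1), with 1 point per library and a line at the mean. In all 4 the D1 libraries lie above every SED library and every SS library, and the highest SS point is BKxBK replicate 2 in each.

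Over all members, 17 had every SED library below every D1 library at Hot, 13 of them among the first 25 by gap, against 0.194% of the 10335 gene models with a Hot treatment mean of at least 10 CPM. In the fit over all Hot libraries with cross as a term, 51 of the 100 members passed the low-count filter (at least 23.6 CPM in at least 6 libraries). Of those, 21 were called lower and 0 higher in SED, at an adjusted p under 0.05. The background was 1.36% called lower and 0.537% called higher of 8005 gene models. Only 36 of the 51 would have passed without the D1 libraries, and 10 of the 21 called ones, so the filtered count of 21 includes members let in by their high level in D1 and is no support by itself. Without the filter all 100 members were tested, and 43 were called lower and 1 higher, against 1.32% lower and 0.756% higher of 23153 gene models. That fit gave far smaller p-values for the same fold change, for example an adjusted p of 8.19e-68 in place of 7.53e-09 for Amillepora24890-RA (edgeR quasi-likelihood test, both), so its counts are the more liberal ones.

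Calls were more frequent at the top of the list, a difference that was not tested. Without the filter 17 of the first 25 by gap were called lower, against 26 of the other 75 members. The 1 member called higher was Amillepora37424-RA, with a log2 difference of 4.32 (adjusted p = 1.79e-07, edgeR quasi-likelihood test), and it rests on DRxSB replicate 2 at 368.3 CPM, while the next SED library held 4.396 CPM. The median log2 difference over all 100 members was -0.95, against 0.03 over all gene models in that fit. In the 4 crosses that held both treatments at Hot, SED was below D1 in 77 members in CUxDR, 68 in DRxSB, 79 in LSxLS and 89 in SBxSB.

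SED and SS juveniles overlapped at Hot. The summed level was 3296 ± 1592 CPM in Hot SED and 4011 ± 1147 CPM in Hot SS (n = 6), and the median over members was 2.92 to 3.996 in SED, against 3.21 to 3.82 in SS. The SS libraries lay wholly within the SED range. The SED mean was below the SS mean in 56 members, but these means cover different crosses. Within DRxSB, which held both treatments, SED was below SS in 46 members and above in 51 (median log2 difference 0.018). Within SBxSB, which also held both, it was below in 45 and above in 51 (median 0.025). With the low-count filter no member was called in either direction, against 0% of all gene models in either direction (edgeR quasi-likelihood test). At an unadjusted p under 0.05 there were 5 members and 344 of all gene models, and DESeq2 called 0 members. Without the filter 3 members were called lower and 1 higher, against 0.0777% lower and 0.199% higher of all gene models, and the median log2 difference over the 100 members was 0.09. The 3 were Amillepora19312-RA (-1.14), Amillepora24448-RA (-0.80) and Amillepora22194-RA (-1.44), named after their values were seen, and the 1 was Amillepora37424-RA. In 0 members was every SED library below every SS library, against 0.029% of gene models.

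A call that was missed does not show that SED and SS were alike at Hot, and the intervals for single members were wide. For Amillepora09062-RA the rate was 4.56-fold lower in SED than in SS, with a 95% exact interval from 0.888 to 29.4-fold. For Amillepora24222-RA it was 1.53-fold lower (interval 0.887 to 2.58-fold) and for Amillepora24890-RA 1.87-fold lower (interval 1.31 to 2.66-fold). These intervals cover counting error only. Of the 56 SS counts of Amillepora24890-RA, 22 came from BKxBK replicate 2, and Hot SED held no BKxBK library. With cross as a term, the fitted log2 differences were -1.22 (SE 1.075), -0.88 (SE 0.79) and -0.09 (SE 0.56), in the same order. At Ambient the rates of these gene models were 557.2-fold (interval 154 to 4605-fold, from 2 SED counts), 39.8-fold (25.9 to 64.5-fold) and 23.2-fold (20.2 to 26.9-fold) lower in SED than in SS. The Ambient libraries chose the members, so the size of these ratios is partly fixed by the choice.

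SS against D1 at Hot, a comparison added after the data were seen, gave the counterpart. Amillepora09062-RA was at 0 and 8.75 CPM in BKxBK, 3.23 and 0 in DRxSB and 0 and 2.07 CPM in SBxSB for SS, against 42.7 to 86.0 CPM in the 6 D1 libraries. As above, D1 alone brought it past the filter. Its log2 difference was -5.00 (SE 0.63, adjusted p = 9.23e-05, Benjamini-Hochberg over edgeR quasi-likelihood tests), though this call was lost without replicate 1 (adjusted p = 0.351, same test), without replicate 2 (adjusted p = 0.0998, same test) or without SBxSB (adjusted p = 0.158, same test). Amillepora24890-RA was at 15.0 and 96.2 CPM in BKxBK, 9.68 and 7.24 in DRxSB and 29.4 and 6.21 CPM in SBxSB for SS, against 180.1 CPM in CUxDR, 192.1 in DRxSB, 392.4 and 198.1 in LSxLS and 366.2 and 299.3 CPM in SBxSB for D1. It passed the filter through 6 D1, 2 SED and 2 SS libraries, and without D1 it would have fallen short of the 6 needed. With that limit, its log2 difference was -4.29 (SE 0.46, adjusted p = 5.00e-06, Benjamini-Hochberg over edgeR quasi-likelihood tests). In both gene models the highest SS library was BKxBK replicate 2, and it stayed below the lowest D1 library.

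Of the 51 members tested, 18 were called lower and 0 higher in SS than in D1, against 0.65% lower and 0.0999% higher of all gene models (edgeR quasi-likelihood test). Of the 18, 7 would have passed the filter without the D1 libraries, so this count is no support by itself either. Without the filter 34 were called lower and 1 (Amillepora19312-RA, 0.70) higher, against 0.769% lower and 0.212% higher. All 18 members were also called in SED against D1, but the comparisons share the 6 D1 libraries. In 23 members every SS library was below every D1 library, against 0.687% of gene models. The count of 18 depended on few libraries. It was 7 without replicate 1, 8 without replicate 2, 10 without DRxSB and 1 without SBxSB, the crosses that held both treatments at Hot.

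**Figure D4:**
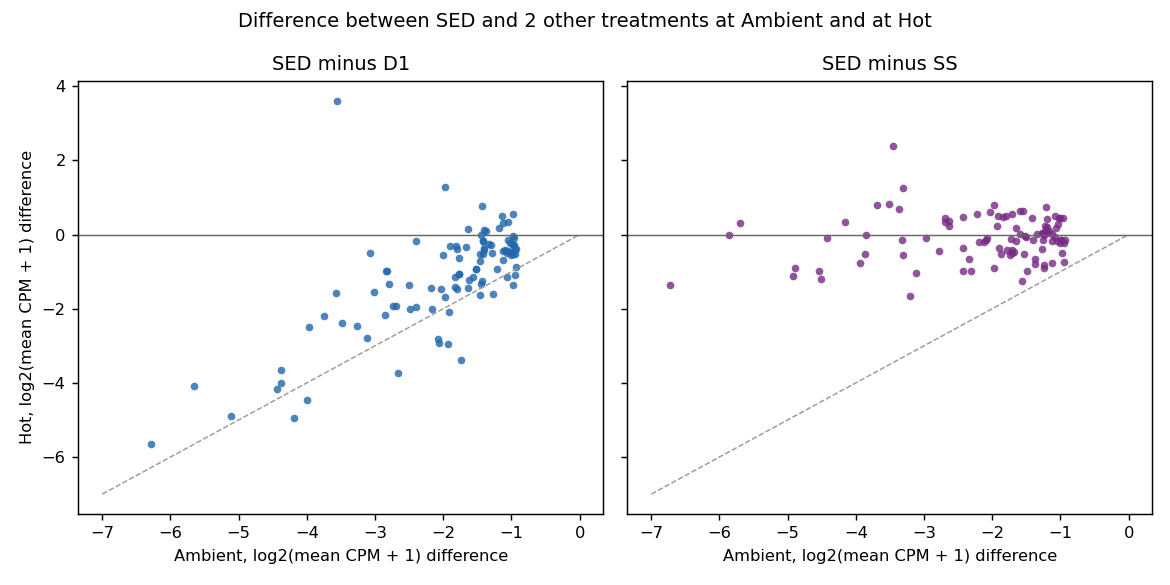
Difference in log2(mean CPM + 1) between SED and D1 (left) and between SED and SS (right), at Ambient on the horizontal axis and at Hot on the vertical axis, with 1 point per member and a dashed line of equality. The D1 panel follows the diagonal at the large differences, and the SS panel lies near 0 at Hot, with SED below D1 in 89 members and below SS in 56.

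Set against Ambient juveniles of the same cross and treatment, the members were mostly lower at Hot in SS and D1 and mostly higher in SED. The difference between treatments was not tested. This is a description, since the Ambient libraries chose the members and a shift towards the middle is partly fixed by that. In SS, 84 members were lower at Hot than at Ambient and 16 higher over 3 combinations, with a median of -1.55 on the log2 scale and a drop of at least 1 in 64 members. In D1, 71 were lower and 29 higher over 4 combinations, with a median of -0.38. In SED, 28 were lower and 71 higher over 7 combinations, with a median of 0.31. The median over all gene models of at least 10 CPM stayed between -0.07 and 0.04 in all 14 combinations.

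The drop in SS was steepest in the members with the largest gap. The choice partly fixes this, since the Ambient SS level enters both the gap and the drop. Among the first 25 by gap the median difference between Hot and Ambient in SS was -2.59 in BKxBK, -4.07 in DRxSB and -4.13 in SBxSB, against -1.39 in CUxDR, -1.05 in DRxSB, -0.34 in LSxLS and -0.09 in SBxSB for D1. Amillepora24890-RA averaged 27.3 ± 34.8 CPM in Hot SS (n = 6), against 556.0 ± 189.97 CPM in Ambient SS (n = 30), while in D1 it averaged 271.4 ± 94.2 CPM at Hot (n = 6), against 387.9 ± 142.7 CPM at Ambient (n = 32). In 16 members every Hot SS library was below every Ambient SS library, against 0.266% of gene models. In 0 members was every Hot D1 library below every Ambient D1 library, against 0.00951%. The members were chosen with SS and D1 above SED at Ambient, so these counts are no support by themselves. Not all members fell in SS. Amillepora06577-RA averaged 12.8 ± 11.7 CPM in Hot SS, against 5.95 ± 13.0 CPM in Ambient SS.

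Temperature and index block went together in juveniles. Of the Hot libraries 14 of 15 SED, 4 of 6 D1 and 5 of 6 SS lay in the late block, against 2 D1 libraries at Ambient and 0 of the other Ambient libraries, so for SED and SS temperature and block cannot be told apart except through 1 early Hot library each. That early Hot SS library had a member median of 3.27, below the lowest of the 30 Ambient SS libraries (4.21), and the early Hot SED library had 3.19, within the Ambient SED range. The 2 early Hot D1 libraries had 4.75 and 5.09, and the 2 late Ambient D1 libraries had 4.31 and 4.83. All Ambient D1 libraries ran from 4.31 to 5.52, so 1 of the late ones was the lowest. At Hot itself, the late libraries alone gave 18 members lower in SED than in D1 and 12 lower in SS than in D1. Those fits used the low-count filter, so members may have entered through D1, and the counts are no support by themselves. Their share over all gene models was not taken, and the part of the block was not tested.

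Larvae, which had no symbiont treatment, held most members at a low level. In Ambient larvae the summed level was 3309 ± 693 CPM (n = 33 libraries), between the juvenile SED level and those of the other treatments. The larval and juvenile tables were scaled separately, so levels set across them were not tested. The Ambient larval mean was at or below the Ambient SED mean in 41 members, between SED and the lowest other treatment in 38, within the range of C1, D1 and SS in 6 and above all of them in 15. Amillepora09062-RA was close to absent in larvae, at 0.480 CPM at Hot, 0.226 CPM at Ambient and 0.255 CPM at Pre. Amillepora24890-RA differed from it, with 236.9 ± 56.4 CPM at Hot (n = 30), 201.0 ± 54.4 CPM at Ambient (n = 33) and 362.8 ± 202.9 CPM at Pre (n = 33), against 23.4 CPM in Ambient SED juveniles. A low level in SED juveniles was thus not always accompanied by a low level in larvae.

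Heat moved many members in larvae, mostly upwards. The summed level was 5629 ± 380 CPM at Hot (n = 30 libraries), against 3309 ± 693 CPM at Ambient. Amillepora37764-RA alone made up 48.8% of that difference, at 1271 ± 444 CPM at Hot, against 138.8 ± 107.6 CPM at Ambient, and without it the sums were 4358 ± 344 CPM at Hot and 3170 ± 629.7 CPM at Ambient. Libraries of a cross and treatment were summed for the test, so that 1 cross is 1 replicate. Of the 75 members that passed the low-count filter, 32 were called higher and 11 lower at Hot, which is 42.7% and 14.7% of those tested, against 22.5% higher and 22.3% lower of 12548 gene models (Benjamini-Hochberg over edgeR quasi-likelihood tests). Without the filter the counts over the 100 members were the same, 32 and 11, against 10.5% higher and 11.7% lower of 25142 gene models. The difference between these shares was not tested.

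Amillepora13086-RA had the largest rise. It ran from 75.2 (CUxBK) to 444.1 CPM (DRxDR) over the 10 crosses at Hot, against 0.705 (SBxSB) to 27.6 CPM (DRxSB) over the 11 crosses at Ambient, with means of 265.8 ± 109.4 and 5.41 ± 8.24 CPM. The groups did not overlap, and it was higher at Hot in 10 of 10 crosses, with a log2 fold change of 5.89 (SE 0.48, adjusted p = 1.51e-09, edgeR quasi-likelihood test). Amillepora14060-RA ran from 122.7 to 447.6 CPM at Hot (median 206.7), against 2.47 to 46.2 CPM at Ambient (median 20.4), also without overlap and higher in 10 of 10 crosses, with a log2 fold change of 4.01 (SE 0.33, adjusted p = 1.45e-09, same edgeR test). Juvenile libraries of a treatment scattered widely in these gene models. Amillepora13086-RA averaged 13.6 ± 18.0 CPM in Ambient SED, against 80.0 ± 86.6 CPM in C1, 35.5 ± 52.2 CPM in D1 and 45.5 ± 102.2 CPM in SS, and its Hot means of 36.1 ± 44.1 CPM in SED, 42.9 ± 60.5 CPM in D1 and 50.6 ± 43.9 CPM in SS differed by less than the spread of any of these groups.

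Among the members lower in heated larvae, Amillepora08487-RA ran from 0.796 (BKxBK) to 16.4 CPM (CUxBK) at Hot, against 14.2 (LSxSB) to 28.5 CPM (CUxCU) at Ambient. The groups overlapped through CUxBK alone, where Hot and Ambient were both at 16.4 CPM, and the gene model was lower at Hot in 9 of 10 crosses (log2 fold change -2.13, SE 0.28, adjusted p = 1.14e-06, edgeR quasi-likelihood test). Amillepora22256-RA averaged 10.6 ± 5.35 CPM at Hot, against 27.9 ± 10.7 CPM at Ambient, and was lower in 10 of 10 crosses (log2 fold change -1.44, SE 0.19, adjusted p = 1.74e-06, same edgeR test). Over all calls, 22 of the 32 higher members rose in all 10 crosses and 5 of the 11 lower ones fell in all 10. The change was at least 1 on the log2 scale in 16 of the higher and 4 of the lower members. The shares among all gene models called were not taken for these counts.

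Of the first 25 members by gap, 14 passed the filter in larvae, and 7 of these were called higher at Hot and 0 lower. That is 50% of the 14 tested, beside 22.5% called higher over all gene models tested, and 28% of all 25. A member can pass the filter through its level at Hot, and the difference between these shares was not tested. Among them Amillepora24222-RA averaged 31.9 ± 12.7 CPM at Hot over 10 crosses, against 2.28 ± 2.54 CPM at Ambient over 11, and the Hot crosses (18.95 to 53.02 CPM) did not overlap the Ambient ones (0.389 to 8.56 CPM). In Hot juveniles of SED and SS, by contrast, it averaged 5.77 ± 5.65 and 11.6 ± 14.4 CPM, against 83.6 ± 32.4 CPM in D1.

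**Figure D5:**
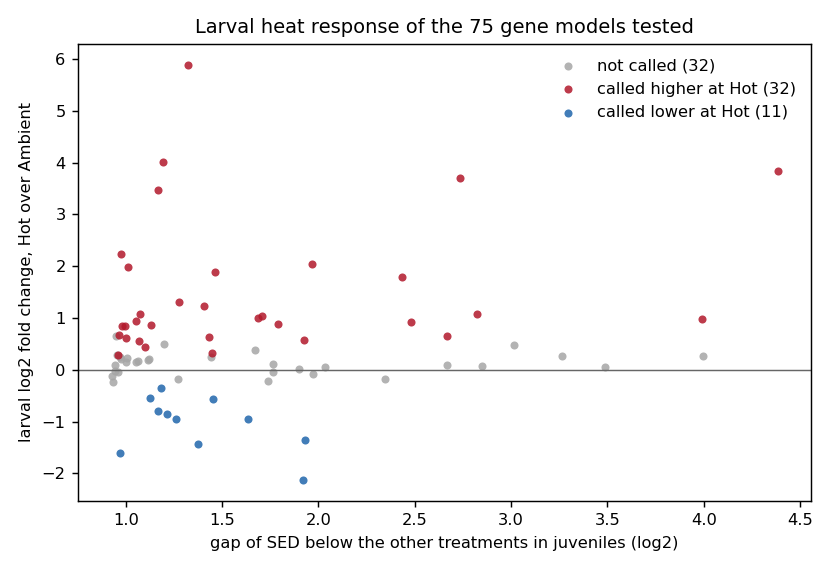
Larval log2 fold change between Hot and Ambient (vertical axis) against the juvenile gap of SED below the other treatments (horizontal axis), for the 75 members tested in larvae. Red points are the 32 members called higher at Hot, blue points the 11 called lower and grey points the other 32, and the blue points all lie at gaps below 2.

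The heat response differed between larval crosses for many members. In the interaction test over single libraries, 39 of the 59 members tested were called, against 36.7% of 9026 gene models, and without the filter 46 of 100, against 13.9% of 24620 (Benjamini-Hochberg over edgeR quasi-likelihood tests). Whether libraries of a cross are separate cultures is not stated, so this test may rest on technical spread.

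Fewer members changed between Pre and Ambient larvae. Of the 75 tested, 12 were called lower and 4 higher at Ambient, against 7.67% lower and 4.1% higher of 12548 gene models (Benjamini-Hochberg over edgeR quasi-likelihood tests). Amillepora17781-RA averaged 15.4 ± 30.4 CPM at Ambient, against 75.5 ± 89.8 CPM at Pre (SD over 11 crosses), lower in 8 of 11 crosses (log2 fold change -2.49, SE 0.60, adjusted p = 0.00759, same edgeR test). Crosses spread widely, with CUxBK at 105.8 CPM at Ambient and DRxDR at 259.5 CPM at Pre. Amillepora37424-RA was also called lower (log2 fold change -1.50, SE 0.47, adjusted p = 0.0385, same edgeR test), with DRxSB highest at both times, at 252.1 CPM at Ambient and 431.2 CPM at Pre. With DESeq2 this call was lost (adjusted p = 0.282), and 2 alternatives kept it. The other larval alternatives gave no value for this gene model.

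The largest rises among the 4 members higher at Ambient were in the following pair. Amillepora03522-RA averaged 22.5 ± 15.9 CPM at Ambient, against 12.8 ± 9.67 CPM at Pre, and was higher in 10 of 11 crosses (log2 fold change 0.82, SE 0.20, adjusted p = 0.0075, edgeR quasi-likelihood test). Its call was lost without replicate 1 (adjusted p = 0.0636, same test). Amillepora05453-RA averaged 61.7 ± 17.0 CPM at Ambient, against 37.3 ± 16.4 CPM at Pre, also in 10 of 11 crosses (log2 fold change 0.73, SE 0.17, adjusted p = 0.00656, same edgeR test). Both were low in Ambient SED juveniles, at 8.29 ± 10.5 and 11.9 ± 10.7 CPM, against 50.6 ± 57.9 and 65.7 ± 35.7 CPM in C1.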

How the data were processed

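The authors deposited raw read counts per gene model, 1 table of 25142 gene models for larvae and 1 of 25349 for juveniles, and per the file headers the columns had been trimmed and aligned, with juvenile columns marked as host. The submitters' processing notes name Bowtie2 2.2.9. No counting step or reference is given in the sources used here. All 242 libraries were assigned through the title in the column name, and all 100 members were found in the larval table. Juvenile replicate numbers follow accession order and pair nothing. Larval numbers come from the titles, and same-numbered libraries did not deviate together (correlation -0.225 to 0.128 over 30 pairs, 1 above 0.1), so no block was used. Every pair of libraries of a group differed by more than counting noise (chi-square over its degrees of freedom at least 1.05). Totals ran from 158481 to 962906 counts per juvenile and 79712 to 1102351 per larval library.

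CPM is count over column total. Tests used edgeR 4.0.16 in R 4.3.3 (TMM, filterByExpr, quasi-likelihood, false discovery rate 0.05 over all gene models tested), with cross as a term, and DESeq2 1.42.0 as an alternative. The fits were tested on simulated data. Exact intervals cover counting error only. Members and lists were chosen with earlier results of these data known. Named were the 2 members with the largest gap, the 2 gene models on each side of the limit, the 2 with SED lowest in the fewest crosses, and per comparison the 2 called members with the largest fold change in each direction among those whose mean log2 CPM reached 3. The alternatives were size factors, the low-count filter, leaving out a replicate or cross, index number or block, the cross term, single larval libraries, and other forms of the choice of members.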

Additional observations from a re-analysis of the deposited data

Results flagged for a closer look

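Among the 14 groups of 4 to 10 values examined for the named members, 5 had 1 value far from the others, where chance flags about 1 in 20 groups. In Hot SS juveniles BKxBK replicate 2 was the highest of 6 libraries in 3 gene models, at 8.747 CPM in Amillepora09062-RA, 39.36 CPM in Amillepora24222-RA and 96.22 CPM in Amillepora24890-RA. These 3 values come from 1 library and are not separate observations. Without it the mean of Amillepora24890-RA in Hot SS was 13.5 ± 9.50 CPM (n = 5), and the summed level of the 100 members was 3627 ± 734 CPM (n = 5).

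In heated larvae CUxBK stood apart in Amillepora08487-RA, at 16.44 CPM, and DRxSB in Amillepora14060-RA, at 447.6 CPM. The heat response differed between the 10 larval crosses in Amillepora08487-RA (adjusted p = 3.87e-05), Amillepora13086-RA (adjusted p = 4.54e-07) and Amillepora14060-RA (adjusted p = 0.00261), each by the interaction term of the edgeR quasi-likelihood test. Amillepora08487-RA was lower at Hot in 9 of 10 crosses, and the other two were higher at Hot in 10 of 10, so for these the crosses differed in size and not in direction.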

How the results depend on the processing

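At Hot, 21 members lower in SED than in D1 became 43 without the low-count filter, 11 without SBxSB and 12 to 24 without 1 replicate number, and 1 was higher without the filter. The other fits gave 18 (late index block), 20 (no cross term), 22 (index covariate), 24 (DESeq2) and 28 (crosses with both treatments). SED against SS called 0 members, but without the filter 3 lower and 1 higher, and 0 to 1 higher without 1 replicate number. The 18 members lower in SS than in D1 became 34 without the filter (then 1 higher), 7 to 20 without 1 replicate number, 10 without DRxSB and 1 without SBxSB. The cause of these shifts was not tested. Without the filter more members enter, and members tested in both fits also gained calls. In larvae the 4 members higher at Ambient than at Pre became 2 to 5 without 1 replicate number, 14 with single libraries and 14 with single libraries and the replicate block. The larval heat calls were 34 higher and 9 lower with single libraries, with and without the replicate block, and the block gave 38 interaction calls. It moved no count by over 1.5 times. Named values kept direction and call in 106 of the 111 alternatives that gave a value, and 0 reversed. Of the 100 members, 75 stayed among the first 100 when medians replaced means (84 met the rule), 79 to 82 without 1 replicate number, 88 to 95 without 1 cross, 90 with a pseudocount of 4, and all 100 on TMM sizes. Depth limits values near 0, and the 6 D1 and 6 SS Hot libraries limit the Hot tests.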
